A study of Mus musculus with 18 samples.

Results

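Usp51, Ccdc92 and Gm4559 are 3 genes whose skin signal was among the most reduced in the knockout mice of this series. They were found by their gene symbols on the array, where each has a single probe set, and they are 3 of the 19505 genes that the named probe sets stand for. The values that singled them out were the skin arrays of both knockouts against those of wild type, so their skin levels are given below as a description without a test, and tests are given for the pituitary arrays, which the choice did not use. A common description of the 3 as nearly silent in knockout skin held for Usp51, held in part for Ccdc92 and did not hold for Gm4559, which stayed above the array background on every knockout skin array.

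RNA was measured on 18 Clariom S mouse arrays, 3 for each of 6 groups. Skin and pituitary were each taken from wild-type C57BL/6 mice, from mice that lack the MIR205HG long noncoding RNA (labelled lncKO) and from mice that lack the microRNA miR-205 made from that locus (labelled miR-205 KO), all labelled female and 5 to 6 weeks old with no treatment. Skin arrays carry the sample numbers 1 to 9 and pituitary arrays 10 to 18, in the order wild type, lncKO, miR-205 KO. Per the labels, ear tissue was the source of the RNA, and the same text stands beside the pituitary samples.

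Usp51 encodes a ubiquitin-specific protease that removes ubiquitin from histone H2A and acts in the response to DNA breaks, and it is a close relative of Usp22 and Usp27x. Usp22 is the catalytic subunit of the deubiquitinase module of the SAGA coactivator complex. Ccdc92 encodes a coiled-coil protein found at centrioles and the base of cilia. Gm4559 is a predicted gene that lies among the Krtap5 genes, which encode ultra-high-sulfur keratin-associated proteins, cross-linking components of the hair shaft.

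The promoters show how differently the 3 genes are built. The promoter of Krtap5-1 is printed because, among the measured Krtap5 genes, it is the nearest in sequence to that of Gm4559. Each window runs from 250 bases before to 50 bases after the annotated start, 5′ to 3′ on the strand of the gene, from RefSeq on GRCm38.p6. Each of the 3 genes matched 1 promoter. Capitals mark a GC box (GGGCGG, or CCGCCC where it lies on the other strand) in the first pair and a TATA box (TATAAA) in the second pair. The windows are chrX:153006219-153006518 on the plus strand for Usp51, chr5:124862172-124862471 on the minus strand for Ccdc92, chr7:142274314-142274613 on the minus strand for Gm4559 and chr7:142297085-142297384 on the minus strand for Krtap5-1.
Usp51: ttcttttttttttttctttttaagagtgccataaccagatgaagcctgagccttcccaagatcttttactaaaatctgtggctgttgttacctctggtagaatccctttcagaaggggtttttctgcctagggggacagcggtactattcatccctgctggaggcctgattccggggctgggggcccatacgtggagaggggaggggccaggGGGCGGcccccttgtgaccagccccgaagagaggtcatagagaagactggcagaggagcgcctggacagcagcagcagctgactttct
Ccdc92: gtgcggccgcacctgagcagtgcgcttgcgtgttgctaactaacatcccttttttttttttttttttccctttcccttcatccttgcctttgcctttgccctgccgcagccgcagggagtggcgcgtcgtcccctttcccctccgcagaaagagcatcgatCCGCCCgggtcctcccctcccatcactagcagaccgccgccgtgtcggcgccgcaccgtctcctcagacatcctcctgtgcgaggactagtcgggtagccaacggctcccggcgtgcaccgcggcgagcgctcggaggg
Gm4559: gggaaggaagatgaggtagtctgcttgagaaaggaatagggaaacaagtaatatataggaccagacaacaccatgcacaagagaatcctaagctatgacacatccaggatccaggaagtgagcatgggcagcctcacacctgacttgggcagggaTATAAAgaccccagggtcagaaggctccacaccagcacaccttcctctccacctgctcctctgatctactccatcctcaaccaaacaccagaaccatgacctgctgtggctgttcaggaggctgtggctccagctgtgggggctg
Krtap5-1: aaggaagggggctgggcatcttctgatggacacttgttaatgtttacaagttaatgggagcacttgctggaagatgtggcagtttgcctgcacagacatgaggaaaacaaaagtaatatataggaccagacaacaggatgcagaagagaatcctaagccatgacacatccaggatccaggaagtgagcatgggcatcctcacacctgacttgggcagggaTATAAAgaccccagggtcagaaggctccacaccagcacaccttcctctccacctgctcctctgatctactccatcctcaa

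Both strands of 32851 RefSeq promoters of the same length were searched for these motifs and for the CCAAT box, and no match marked here overlaps another. The TATA box letters stood in 13.6% of the promoters, the GC box letters in 35.7% and the letters CCAAT in 37.4%, the last in none of the 3 genes, and a match is only a match of letters. The Usp51 window held a GC box whose first base lay 38 bases before the start, 53.7% G or C and 6 CpG sites. The Ccdc92 window held a GC box on the opposite strand 89 bases before the start, and with 63.3% G or C and 30 CpG sites it had at least as many CpG sites as 89.4% of all promoters, whose median was 7. The Gm4559 window held no CpG site, and its TATA box began 95 bases before the annotated start. The windows of Gm4559 and Krtap5-1 shared an unbroken block of 104 identical bases, bases 132 to 235 of the first and 197 to 300 of the second, which includes the TATA box. In Krtap5-1 that box began 30 bases before the start, so the annotated start of Gm4559 lies 65 bases further from the box. It lies past the end of the shared block, which is also the end of the Krtap5-1 window. The other 4 measured Krtap5 genes shared blocks of 16 to 24 bases with Gm4559.

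The array background was read from 1449 probe sets of olfactory, vomeronasal and taste receptor genes, families that are mostly silent in both tissues. Their 95th percentile lay at an intensity of 27.6 to 35.0 on the skin arrays and 26.0 to 30.6 on the pituitary arrays, and their median at 11 to 13 and 11 to 12. Intensities are on the linear scale as deposited. Levels of different probe sets are not comparable with each other, so each gene is set against this background and against itself in other groups. Keratinocyte markers summed to 555002 to 1031454 on the skin arrays and to 83 to 123 on the pituitary arrays, and the defining hormone genes of the pituitary were high on all 9 pituitary arrays. A pair of wild-type skin arrays stood apart in other genes. Wild-type 3 had a mean log2 intensity of 4.41 over 11 hair shaft and root sheath genes, against 6.83 and 7.39 on the other wild-type arrays, and wild-type 1 had a growth hormone (Gh) intensity of 2501 against 29 and 76. The labels name no batch, and whether each array stands for its own mouse is not stated, so the p-values below reflect array to array spread that could be technical.

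In wild-type skin Usp51 was read at 267, 347 and 267, far above the background of those arrays. In lncKO skin it was read at 8, 9 and 8, and in miR-205 KO skin at 9, 10 and 8. All 6 knockout arrays therefore lay below the median of the silent receptor genes, and no knockout value came near a wild-type one. On the log2 scale the group means were 8.19 ± 0.22 (SD, n = 3) in wild type, 3.06 ± 0.10 in lncKO and 3.16 ± 0.16 in miR-205 KO. The differences from wild type were -5.13 and -5.02, which ranked second of 19572 named probe sets in each comparison. As the knockout values lie within the background, these are limits of the array rather than levels: set against the 95th percentile of the silent genes, wild-type skin was at least 9.24-fold higher than lncKO skin and at least 9.61-fold higher than miR-205 KO skin. The measured differences shrank to -3.66 and -3.62 when 16 was added to every intensity. In bulk tissue, fewer cells that express a gene and less RNA in each cell cannot be told apart.

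Ccdc92 was read at 497, 377 and 565 in wild-type skin. In lncKO skin the readings were 19, 34 and 25, and in miR-205 KO skin 50, 31 and 32. The groups were wide apart, but unlike Usp51 the gene kept a trace above background: 1 of 3 lncKO arrays and 2 of 3 miR-205 KO arrays exceeded the 95th percentile of the silent genes. The log2 means were 8.89 ± 0.30 (SD, n = 3), 4.66 ± 0.42 and 5.20 ± 0.39. The difference from wild type was -4.23 in lncKO, a measured ratio of 18.7-fold, and -3.69, a ratio of 12.9-fold, in miR-205 KO. As 2 of 3 lncKO arrays lie within the background, wild-type skin is better given as at least 14.7-fold higher than lncKO skin. The measured differences ranked 5 and 14 of 19572. The gap from the lowest wild-type array to the highest of the 6 knockout arrays was 2.91 log2 units for Ccdc92 and 4.74 for Usp51, the second largest and the largest gap of all named probe sets.

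Gm4559 was read at 1988, 2620 and 457 in wild-type skin, so the third array lay well below the others. In lncKO skin the readings were 48, 127 and 61, and in miR-205 KO skin 38, 57 and 44. All 6 knockout values exceeded the 95th percentile of the silent genes on their arrays, and they still lay below the lowest wild-type value. The log2 means were 10.38 ± 1.35 (SD, n = 3), 6.17 ± 0.73 and 5.51 ± 0.30, with differences from wild type of -4.21 and -4.87. The wide wild-type spread put its gap at 1.85 log2 units, 19th in rank. Without wild-type array 3 the differences were -4.99 and -5.64. The 3 wild-type arrays serve both knockouts, so the differences of lncKO and miR-205 KO are not independent of each other for any of the 3 genes.

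**Figure D1:**
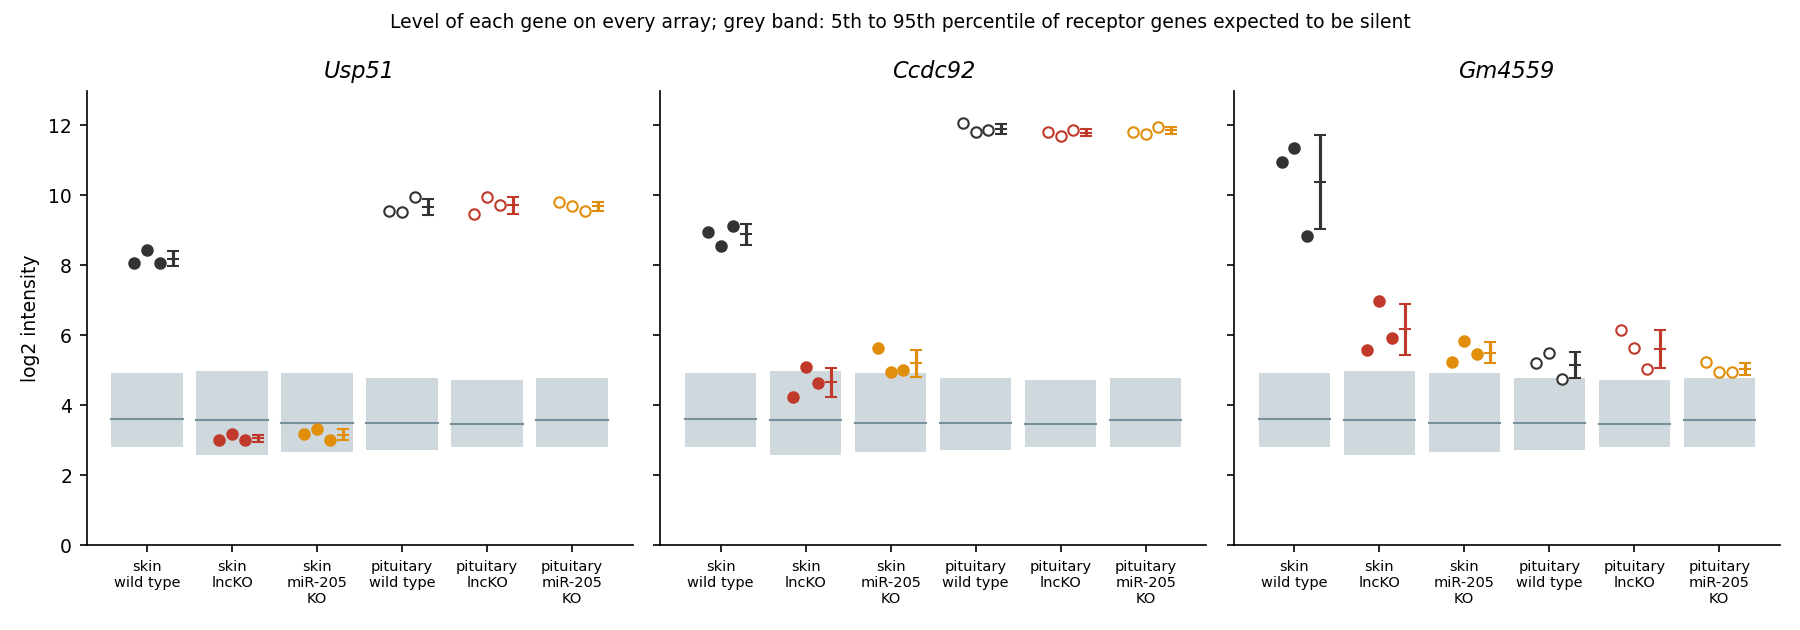
Log2 intensity of Usp51, Ccdc92 and Gm4559 on every array of the 6 tissue and genotype groups, with the mean and SD of each group beside its 3 points; grey boxes span the 5th to the 95th percentile of the silent receptor genes in each group, with a line at the median. Usp51 in knockout skin sits inside the grey box on all 6 arrays, Ccdc92 near its upper edge and Gm4559 above it, while the pituitary points of Usp51 and Ccdc92 are high in all 3 genotypes.

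In pituitary, neither Usp51 nor Ccdc92 was low in any genotype. Usp51 was read at 749, 739 and 986 in wild type, 709, 998 and 844 in lncKO and 893, 838 and 754 in miR-205 KO, so the 3 genotypes overlapped. Ccdc92 was read at 4296, 3561 and 3735 in wild type, 3602, 3302 and 3758 in lncKO and 3616, 3504 and 4022 in miR-205 KO, ranges that overlapped in part, with the lowest reading in lncKO and the highest in wild type. Gm4559 was low in the gland, at 37, 45 and 27 in wild type, 71, 50 and 33 in lncKO and 38, 31 and 31 in miR-205 KO. As in knockout skin, most of these readings lay above the 95th percentile of the silent genes. They did so on 2 of 3 wild-type arrays, 3 of 3 lncKO arrays and 3 of 3 miR-205 KO arrays.

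None of the 3 genes passed the test in any of the 3 pituitary comparisons (limma, Benjamini-Hochberg over 19572 probe sets, adjusted p below 0.05). Over all named probe sets 0.700% were called for lncKO against wild type, 0.107% for miR-205 KO against wild type and 0.291% for lncKO against miR-205 KO, so a count of 0 of 3 is close to the background and says little by itself. The lowest of the 9 unadjusted p-values was 0.0617, for Gm4559 in lncKO against miR-205 KO. The log2 difference of Usp51 was 0.04 ± 0.19 (SE, n = 3 per group) in lncKO against wild type, with a 95% interval for the ratio of 0.774 to 1.37 (limma adjusted p = 0.952). In miR-205 KO against wild type it was 0.02 ± 0.19, with an interval of 0.759 to 1.35 (limma adjusted p = 0.995). These intervals leave room for changes of about the size of the replicate spread and do not reach the differences seen in skin. For Ccdc92 the log2 differences were -0.12 ± 0.16 (limma adjusted p = 0.824) and -0.06 ± 0.16 (limma adjusted p = 0.974), with intervals for the ratio of 0.723 to 1.17 and 0.755 to 1.23. For Gm4559 they were 0.46 ± 0.27 (limma adjusted p = 0.528) and -0.10 ± 0.27 (limma adjusted p = 0.971), with wider intervals of 0.912 to 2.08 and 0.619 to 1.41. Between the knockouts the log2 differences, lncKO minus miR-205 KO, were 0.03 ± 0.19 for Usp51, -0.06 ± 0.16 for Ccdc92 and 0.56 ± 0.27 for Gm4559 (limma adjusted p = 0.978, 0.929 and 0.475).

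**Figure D2:**
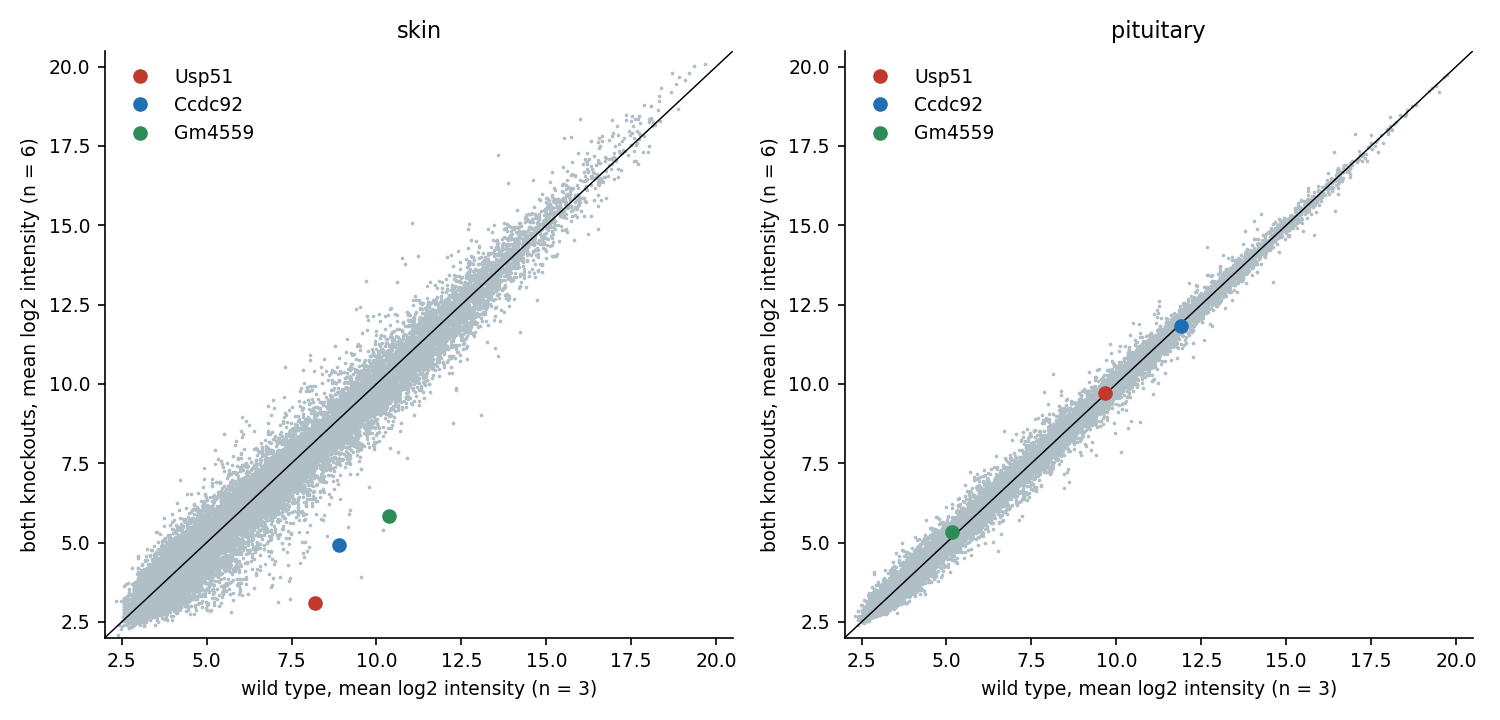
Mean log2 intensity of every named probe set (grey) in wild type (horizontal axis, n = 3 arrays) and in both knockouts together (vertical axis, n = 6 arrays), for skin at the left and pituitary at the right, with the line of equality. Usp51, Ccdc92 and Gm4559 lie far below the line in skin and on or beside it in pituitary, Usp51 and Ccdc92 among well-expressed genes and Gm4559 among dim ones.

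The order of the 6 groups differed between the genes. For Usp51 and Ccdc92 the 3 pituitary groups were highest and overlapped each other, wild-type skin came next, and both knockout skin groups were last. Wild-type pituitary exceeded wild-type skin by 1.49 log2 units for Usp51, a 2.8-fold ratio, and by 3.03 log2 units or 8.14-fold for Ccdc92. For Gm4559 wild-type skin alone was high, 37.6-fold above wild-type pituitary, and the knockout skin readings of 38 to 127 overlapped the pituitary readings of 27 to 71. Wild-type skin held 32.7%, 42.5% and 32.7% of the wild-type pituitary level of Usp51 and 12.9%, 9.79% and 14.7% of that of Ccdc92 on its 3 arrays. Pituitary hormone genes, summed over all 7 measured, stood at 2696, 149 and 182 on these arrays, or 0.0884%, 0.00488% and 0.00596% of the wild-type pituitary sum, and at 119 to 148 on the knockout skin arrays. Of the 7 genes, 3 lay at or below the 95th percentile of the silent genes on all wild-type skin arrays and 6 on all knockout skin arrays. Background signal is therefore part of these sums and shares. Gh alone was read at 2501, 29 and 76 on the wild-type and at 7 to 15 on the knockout skin arrays. The part of pituitary hormone signal in the skin differences was not tested. The Y-linked genes Kdm5d, Eif2s3y and Uty were read at 5 to 13 on all skin arrays and at 172 to 2339 on all pituitary arrays, although every sample is labelled female, so tissue and sex cannot be told apart in a comparison of X-linked Usp51 between skin and pituitary.

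A fall from clear signal to an intensity of at most 16 was rare in skin. This limit is stricter than the 95th percentile of the silent genes, 27.6 to 35.0 on the skin arrays. Falls that end between the 2 are not in the count below. A probe set with at least 64 on all wild-type skin arrays and at most 16 on all 6 knockout skin arrays was found for 2 genes, Usp51 and Carmil3, an actin capping protein regulator. Carmil3 was read at 78, 101 and 75 in wild-type skin, at 9 to 14 in lncKO and at 10 to 16 in miR-205 KO, and at 113 to 206 over the pituitary arrays. No named probe set moved the opposite way by the same limits, and none met them in pituitary in either direction. The count depends on the limits: it was 26 with the upper limit at 32 and 1 with it at 100, 1 with the lower limit at 12 and 4 with it at 20, when Marchf11 and Fnd3c2 joined. Usp51 was counted under each of these limits, and Ccdc92 and Gm4559 under none. After the gaps of Usp51 and Ccdc92, the next largest belonged to Marchf11 at 2.78 log2 units, Chrna4, a neuronal nicotinic receptor subunit, at 2.53, Tspoap1 at 2.39 and Rgl3 at 2.27. In wild-type skin these genes were read at 117 to 125, 121 to 158, 110 to 124 and 140 to 187. On every knockout skin array they lay within the background, with highest readings of 17, 21, 21 and 29.

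None of the close relatives and partners of Usp51 passed the test in knockout skin in the fit of the 9 skin arrays. Usp22 in lncKO skin differed from wild type by -0.51 ± 0.27 log2 units (SE, n = 3 per group, limma adjusted p = 0.224) and in miR-205 KO skin by -0.69 ± 0.27 (limma adjusted p = 0.1). Without wild-type array 1 both passed, at -0.84 (limma adjusted p = 0.0339) and -1.02 (limma adjusted p = 0.0146), and the miR-205 KO difference also passed in a fit of all 18 arrays (limma adjusted p = 0.0451). Usp27x stood at 0.33 ± 0.26 (limma adjusted p = 0.417) and 0.53 ± 0.26 (limma adjusted p = 0.18). None of the 8 listed genes of the SAGA deubiquitinase module was called in either comparison, where 15.4% of all named probe sets were called for lncKO and 16.8% for miR-205 KO, and their median differences of -0.07 and 0.04 lay beside -0.07 over all probe sets in both comparisons. The gene lists here and below were chosen with earlier results of these data known, so their counts are a description.

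Of 53 other ubiquitin-specific proteases, 2 rose and 3 fell in lncKO skin, while in miR-205 KO skin 1 rose and 2 fell. These counts lie below the shares over all named probe sets, which were 6.21% higher and 9.17% lower for lncKO and 6.79% higher and 10.0% lower for miR-205 KO. The list's median differences were -0.10 and -0.06. In both comparisons Usp20 fell, with log2 differences of -1.24 ± 0.23 (SE, limma adjusted p = 0.00383) and -1.74 ± 0.23 (limma adjusted p = 0.000534), and it passed under every alternative setting tried. Usp1, which deubiquitinates proteins of DNA crosslink repair, rose by 0.78 ± 0.23 (limma adjusted p = 0.0367) and 1.11 ± 0.23 (limma adjusted p = 0.00698). The lncKO call of Usp1 was lost without wild-type array 1 (limma adjusted p = 0.114) and without each lncKO array (0.0589 to 0.103), and was kept under 9 of 14 alternatives. Usp2 fell in both comparisons (-1.19 ± 0.32, limma adjusted p = 0.0237, and -1.24 ± 0.32, limma adjusted p = 0.0186), Usp28 fell in lncKO (-0.91 ± 0.28, limma adjusted p = 0.0404) and Usp48 rose in lncKO (0.92 ± 0.23, limma adjusted p = 0.0184). The Usp2 calls were lost without wild-type array 2 or 3, each lncKO array and miR-205 KO array 7 or 8, those of Usp28 without wild-type array 2 or 3 or any lncKO array, and that of Usp48 without wild-type array 2 or lncKO array 4 or 6, with limma adjusted p between 0.0509 and 0.129. The Usp28 call was kept under 5 of 14 alternatives in all. Usp28 also passed in miR-205 KO once wild-type array 1 was left out (-0.88, limma adjusted p = 0.0486), and Usp48, at 0.66 there (limma adjusted p = 0.0674), passed under 4 of 14 alternatives, with 0.0296 as the lowest limma adjusted p.

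Among 12 genes of the histone ubiquitin response to DNA breaks, the pathway in which Usp51 acts, 1 rose and 1 fell in lncKO skin, while in miR-205 KO skin 2 rose and 1 fell, with median differences of 0.35 and 0.19. With 6.21% and 6.79% of all named probe sets higher and 9.17% and 10.0% lower, counts of 1 of 12 lie near the background. The 2 of 12 that rose in miR-205 KO lie above the 6.79%, on few genes. H2ax, the histone variant phosphorylated at breaks, changed by -1.34 ± 0.32 (SE, limma adjusted p = 0.0137) and -1.43 ± 0.32 (limma adjusted p = 0.00952). Rnf169, a reader of ubiquitinated histone H2A, rose by 1.36 ± 0.33 (limma adjusted p = 0.0149) and 1.22 ± 0.33 (limma adjusted p = 0.0231), and Bard1, the partner of Brca1, rose by 0.80 ± 0.25 (limma adjusted p = 0.0409) in miR-205 KO alone. The mean log2 level of Bard1 in wild-type skin, 4.75, is itself within the background. That Bard1 differed between the knockouts was not tested. The H2ax call in lncKO was lost without lncKO array 4 (limma adjusted p = 0.0586), the Rnf169 calls without wild-type array 2 (0.0538 and 0.0789), lncKO array 5 (0.0576) or miR-205 KO array 7 (0.104), and the Bard1 call without wild-type array 2 or 3 or any miR-205 KO array (0.0794 to 0.143), the last kept under 6 of 14 alternatives. In pituitary 0 genes of these 3 lists passed in any comparison.

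For Ccdc92 the named relative is Ccdc92b, which was read at 27 to 35 in wild-type skin, 14 to 20 in lncKO, 14 to 16 in miR-205 KO and 49 to 91 in pituitary. It fell in skin, with log2 differences of -0.82 ± 0.22 (SE, limma adjusted p = 0.0234) and -0.96 ± 0.22 (limma adjusted p = 0.011), although all of these skin levels lie at or under the background limit. The lncKO call was lost without wild-type array 1 (limma adjusted p = 0.0694), lncKO array 5 (0.0505) or lncKO array 6 (0.0885), and was kept under 9 of 14 alternatives. Of 12 genes of the centriolar distal appendages and the base of the cilium, only Odf2, which encodes a protein of the mother centriole appendages, was called. It fell, with log2 differences of -1.43 ± 0.21 (SE, limma adjusted p = 0.00126) in lncKO and -1.31 ± 0.21 (limma adjusted p = 0.00196) in miR-205 KO skin, under every alternative setting tried. A count of 1 of 12 is below the 15.4% and 16.8% called over all named probe sets. The list's medians were 0.21 and 0.15, and none of its genes passed in pituitary.

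Genes beside Usp51 and Ccdc92 in RefSeq order showed much smaller differences in skin. Among the 5 named genes on either side of Usp51, 1 rose and 1 fell in each knockout skin. Over all named probe sets 6.21% rose and 9.17% fell in lncKO, and 6.79% rose and 10.0% fell in miR-205 KO. Counts of 1 of 10 are close to these shares. Mageh1, a melanoma antigen family gene next to Usp51 in that order, rose by 1.32 ± 0.22 (SE, limma adjusted p = 0.00237) and 1.09 ± 0.22 (limma adjusted p = 0.0063). Gpr173, an orphan receptor gene whose log2 level of 4.29 in wild-type skin is itself within the background, changed by -0.83 ± 0.21 (limma adjusted p = 0.0171) and -0.89 ± 0.21 (limma adjusted p = 0.0122), with the lncKO call lost without wild-type array 3 (limma adjusted p = 0.0559). The 10 differences in lncKO ran from -1.03 to 1.32, against -5.13 for Usp51 itself. Around Ccdc92 none of the 10 neighbours was called in either knockout, and their differences ran from -0.83 to 0.07 in lncKO and -0.78 to 0.00 in miR-205 KO. With 15.4% and 16.8% of all named probe sets called in either direction, a count of 0 of 10 says little by itself.

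**Figure D3:**
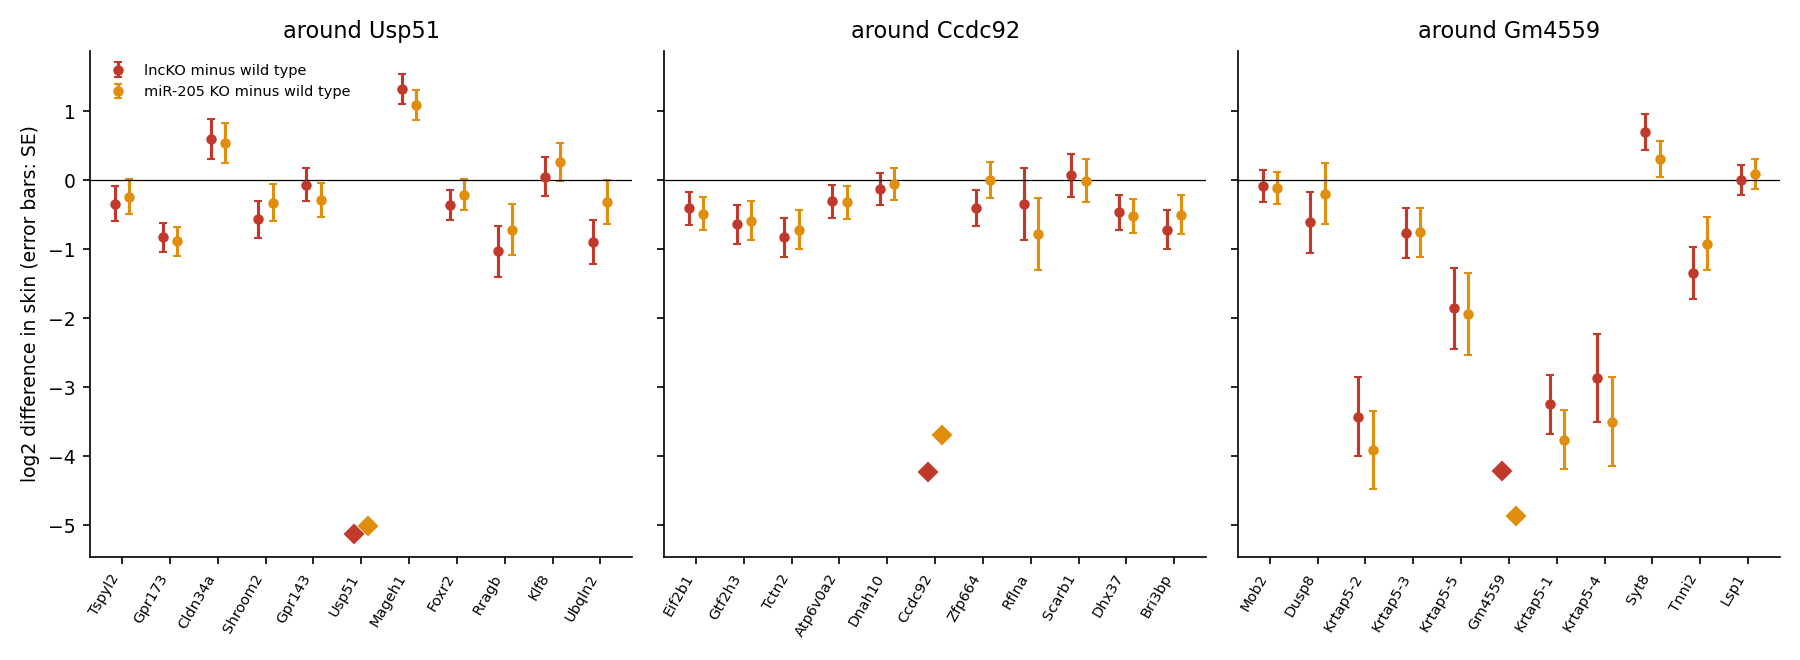
Log2 difference from wild type in skin of Usp51, Ccdc92 and Gm4559 (diamonds, no error bar because they were chosen by it) and of the 5 named genes on either side of each in RefSeq order (points, with the standard error of the fit), for lncKO and miR-205 KO. The neighbours of Usp51 and Ccdc92 lie between -1.03 and 1.32, whereas several Krtap5 genes beside Gm4559 lie below -2.

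Around Gm4559, in contrast, 4 of 10 neighbours fell in each knockout and none rose. Of all named probe sets 9.17% fell in lncKO and 10.0% in miR-205 KO. Krtap5-1 was read at 7417, 8128 and 1937 in wild-type skin, at 503, 634 and 426 in lncKO and at 374, 326 and 386 in miR-205 KO. Its log2 differences were -3.25 ± 0.43 (SE, limma adjusted p = 0.000581) and -3.76 (limma adjusted p = 0.000261), and those of Krtap5-2 were -3.43 ± 0.57 (limma adjusted p = 0.00248) and -3.91 (limma adjusted p = 0.00112). Krtap5-4 differed by -2.87 ± 0.64 (limma adjusted p = 0.011) and -3.50 (limma adjusted p = 0.00387), but neither of its calls held with values below 16 set to 16 (limma adjusted p = 0.0909 and 0.0502). Krtap5-5 was called in miR-205 KO (-1.94, limma adjusted p = 0.041) and not in lncKO (-1.86 ± 0.59, limma adjusted p = 0.0512). The miR-205 KO call was kept under 3 of 13 alternatives. It was lost without wild-type array 1 or 2 or any miR-205 KO array (limma adjusted p = 0.0896 to 0.146), and without wild-type array 3 it was also made in lncKO (-2.78, limma adjusted p = 0.000563). Tnni2, a troponin of fast muscle, was the remaining call in lncKO (-1.35 ± 0.38, limma adjusted p = 0.0301), lost without wild-type array 2 (0.109) or lncKO array 4 (0.119) or 6 (0.0976) and kept under 8 of 14 alternatives. Krtap5-3 did not pass, at -0.77 (limma adjusted p = 0.17) and -0.76 (limma adjusted p = 0.168). Probe sets of a multigene family can share signal between near-identical copies, and whether Gm4559 and Krtap5 transcripts were read apart was not tested.

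Over the whole keratin-associated protein family, 32 of 50 genes fell in lncKO and 36 of 50 in miR-205 KO skin, and 0 rose. Of all named probe sets 9.17% and 10.0% fell. The family was listed with earlier results of these data known, so its counts are a description. The median differences of the family were -2.28 and -2.49, beside -0.07 over all named probe sets. On all wild-type skin arrays 8 of the 50 were at or below the background limit. Of these, Krtap13-1, Krtap31-1 and Krtap31-2 are counted as falling in both knockouts and Krtap20-2 in miR-205 KO. Krtap3-2 and Krtap3-3, both counted, had the same means and differences in each comparison, -2.09 in lncKO and -2.34 in miR-205 KO. They may not be separate readings. Without wild-type array 2 the counts were 20 and 22, without lncKO array 4 or 6 they were 21 and 20, without miR-205 KO array 7 the count was 21, and with values below 16 set to 16 they were 4 and 7. They were 18 and 21 with 16 added to every intensity and 21 and 23 with a variance trend. Of 11 measured hair shaft and root sheath genes 3 fell in lncKO and 2 in miR-205 KO skin, beside 9.17% and 10.0% of all named probe sets. The intensities of the 11 genes summed to 290 to 7668 in wild type, 254 to 633 in lncKO and 350 to 486 in miR-205 KO. Krt31, Krt33a, Krt33b and Krt34, keratins of the hair shaft, were at or below the background limit on all knockout skin arrays. Within wild type, array 3 was lowest for Gm4559, for Krtap5-1, Krtap5-2 and Krtap5-4 and for the mean of the hair list. Within lncKO, array 5 was highest for each of these. Within wild type, array 3 gave the highest Ccdc92 reading, 565, and the same Usp51 reading as array 1, 267. Within lncKO, array 5 was also highest for Ccdc92, at 34, and for Usp51, at 9 against 8 and 8, both readings near or within background. The part of hair content in the differences of the 3 genes was not tested.

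**Figure D4:**
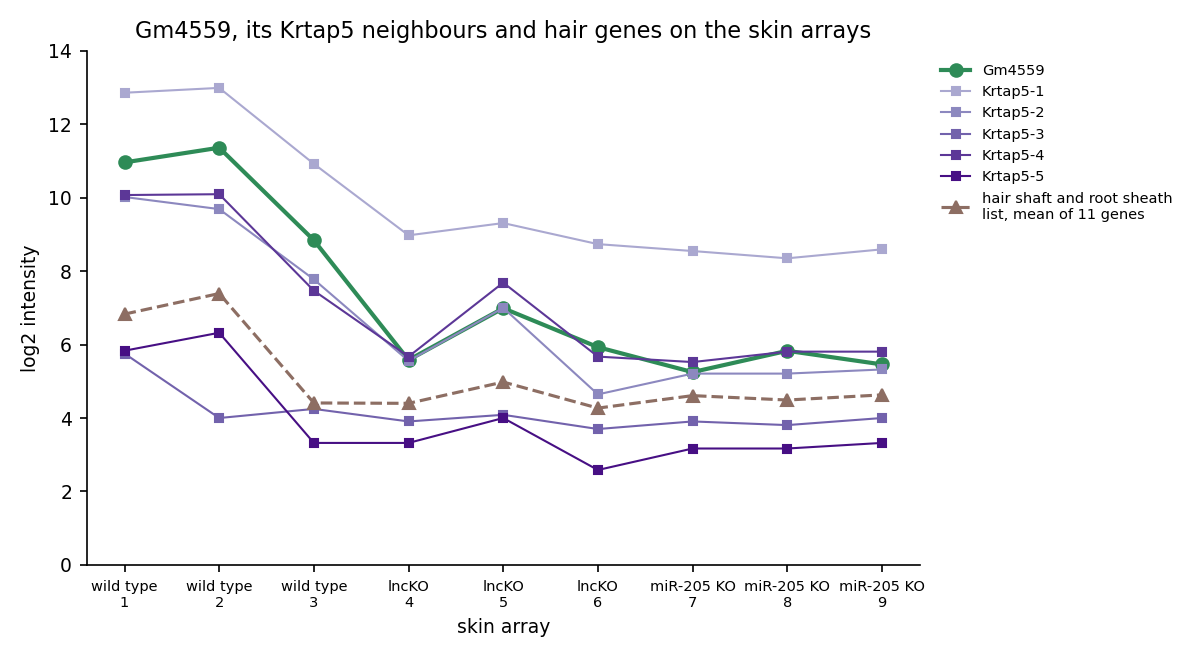
Log2 intensity of Gm4559, of the 5 measured Krtap5 genes and of the mean of 11 hair shaft and root sheath genes on each of the 9 skin arrays; lines only join the points of a gene, since arrays of a group have no order. Wild-type array 3 is low and lncKO array 5 high for Gm4559, Krtap5-1, Krtap5-2, Krtap5-4 and the hair list.

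Markers of other cell types were called in skin, where 6.21% of all named probe sets were higher and 9.17% lower in lncKO, and 6.79% and 10.0% in miR-205 KO. These marker lists were chosen with earlier results of these data known, so the counts are a description. Genes that rose in both knockouts numbered 3 of 5 for adipocytes, 4 of 6 for cartilage, 2 of 5 for sebaceous gland and 1 of 6 for keratinocytes in each comparison, and none of these 4 lists held a gene that fell. For skeletal muscle 1 of 6 rose in lncKO and 2 of 6 in miR-205 KO, for melanocytes 0 and 1 of 5, and for fibroblasts 1 of 3 in each, while 0 of 3 macrophage and 0 of 3 endothelial markers were called. Of the 7 pituitary hormone genes 1 rose in each knockout, and 1 fell in lncKO and 2 in miR-205 KO. The part of tissue make-up in the skin differences of Usp51 and Ccdc92 was not tested.

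Likeness to each gene was measured as Pearson's r of log2 intensity over arrays, among 15305 probe sets with a mean of at least 4 in wild-type skin, and is given as a description, since these arrays share the groups for which the genes were chosen. Over the 9 skin arrays Usp51 was most like Fam43b (r = 0.998), Gpr6 (0.991), Fnd3c2 (0.991), Lrrc7 (0.990) and Bex4 (0.989). Over all 18 arrays it was most like Ajm1, Carmil3 and H2-Q2 (0.988 each), Tspoap1 and Ubqln4 (0.987 each). Gpr6, for example, had a log2 level of 6.21 in wild-type skin, 3.44 in lncKO, 3.32 in miR-205 KO and 8.60 to 8.73 in the pituitary groups. Like Usp51, each of these genes apart from Fam43b had wild-type skin above both knockout skin groups and below all pituitary groups. Ccdc92 was most like the noncoding RNA Norad over both sets of arrays (r = 0.989 and 0.991), followed in skin by Polr2f (0.988), Ormdl2 (0.987), Pcdh20 (0.985) and Tuba4a (0.984), and over all arrays by Rgl3 (0.990), Six3os1, Pck2 and Odf2 (0.988 each). Gm4559 was most like Olfr1012 (r = 0.994), an olfactory receptor gene whose log2 levels of 3.41 to 4.13 in skin lie within the background, followed by Krtap5-1 (0.990), Map2k3 (0.987), Krt39 (0.984) and Otub2 (0.983) in skin. Over all arrays the 5 most like it were all keratin-associated protein genes, Krtap7-1 (0.964), Krtap5-4 and Krtap9-3 (0.958 each), Krtap5-2 (0.957) and Krtap4-16 (0.952).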

How the data were processed

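Total RNA was hybridised to 18 arrays of 1 colour, per the labels. The authors deposited linear intensities, as whole numbers from 4 to 1243875 with 1 value for each probe set on each array. Their background correction, summarisation, normalization and genome build: not given in the sources used here. Of 22206 probe sets 19572 carried 1 gene symbol, 0 several and 2634 none. Intensities were log2 transformed with no pseudocount and fitted with limma 3.58.1 (R 4.3.3, lmFit and eBayes), the 9 arrays of a tissue in a single fit with 6 residual degrees of freedom, with two-sided p-values adjusted after Benjamini and Hochberg over all 19572 and a threshold of 0.05. Every adjusted p comes from limma. The fit recovered known changes on data simulated for lncKO against wild type in pituitary, and the skin fits were not tested in this way. RefSeq tables of GRCm38.p6 gave promoter sequences and the order of neighbouring genes. The 3 genes and all lists were chosen with earlier results of these data known. Genes named are the 3 genes, those that fell from at least 64 to at most 16, the next largest gaps, the 5 genes on each side, the 5 most alike over 9 and over 18 arrays, the paralogs, and up to 4 called genes per list; Krtap5-3 and uncalled values were added after the values were seen. Alternatives were quantile normalization, centring on the median, a floor of 16, log2(value + 16), a filter at log2 4, a variance trend with robust estimation, other sets of arrays in the fit, and each array left out. Their use on relatives, list members, neighbours and the keratin-associated protein count was chosen after seeing the data. The number of arrays limits the precision.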

Additional observations from a re-analysis of the deposited data

How the results depend on the processing

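The pituitary results for Usp51, Ccdc92 and Gm4559 passed the threshold under none of 126 combinations of gene, comparison and alternative, with 0.292 as the lowest adjusted p (limma). Their signs were not fixed. Usp51 in miR-205 KO against wild type turned to -0.02 with quantile normalization and to -0.04 with centring on the median. With single arrays left out the differences ran from -0.08 to 0.18 for Usp51 in lncKO, -0.06 to 0.15 for Usp51 in miR-205 KO, -0.11 to 0.02 for Ccdc92 in miR-205 KO, -0.30 to 0.07 for Gm4559 in miR-205 KO and -0.10 to 0.15 for Usp51 between the knockouts.

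In skin, with values below 16 set to 16, the Usp51 difference was -4.19 in both knockouts. With 16 added to every intensity it was -3.66 in lncKO and -3.62 in miR-205 KO, and that of Ccdc92 was -3.56 and -3.21. Each of these settings compresses low values by construction. The floor of 16 also ended the calls of H2ax, Rnf169, Usp2 and Krtap5-4 in both knockouts, of Usp28 and Tnni2 in lncKO and of Bard1 and Krtap5-5 in miR-205 KO. In skin, H2ax, Rnf169 and Usp2 had group means of at least log2 8.58, and Krtap5-4 was read at 46 or more. The floor did not compress these 4 genes, whose adjusted p also depends on the spread and the adjustment shared by all probe sets. Fits of only the groups compared ended those of Usp1, Usp28, Ccdc92b and Tnni2 in lncKO and of Bard1 and Krtap5-5 in miR-205 KO, centring ended Usp28 and Ccdc92b in lncKO, log2(value + 16) Usp28 and Tnni2 in lncKO and Krtap5-5 in miR-205 KO, the variance trend Bard1 and Krtap5-5 in miR-205 KO, and quantile normalization Krtap5-5 in miR-205 KO. In miR-205 KO Usp48 passed with quantile normalization, centring, log2(value + 16) and all 18 arrays, and in lncKO Krtap5-5 with all 18 arrays. The number of genes that fell from at least 64 to at most 16 was 26 and 1 with the upper limit at 32 and 100, and 1 and 4 with the lower limit at 12 and 20.

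The numbers of probe sets called, which set the background shares, moved more. With the floor of 16 they were 11, 0 and 18 in pituitary (lncKO against wild type, miR-205 KO against wild type, lncKO against miR-205 KO) and 1937 and 2173 in skin (lncKO, miR-205 KO). The variance trend with robust estimation gave 307, 41 and 161 in pituitary, fits of only the groups compared gave 59, 5 and 27, and log2(value + 16) gave 110 between the knockouts. With single arrays left out they ran from 11 to 123, 4 to 8 and 4 to 37 in pituitary, lowest without wild-type array 12 (for both comparisons with wild type) and miR-205 KO array 16, and from 1886 to 2514 and 1668 to 2775 in skin, lowest without lncKO array 4 and miR-205 KO array 7. Except where an alternative leaves fewer arrays or compresses values, the cause was not tested. No paired analysis was possible because the labels do not state which samples, if any, came from the same mouse. Signal over background limits Usp51 in both knockout skin groups and Ccdc92 in lncKO skin, whose levels there are bounds.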

Other observations

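The genes with the widest separation of wild-type from knockout skin differed in their pituitary level by direction. Wild-type pituitary was above wild-type skin for 49.1% of the 19572 named probe sets, with a median difference of -0.01 log2 units. Of the 10 probe sets with the largest gaps below wild type in all knockout skin arrays, which include Usp51 and Ccdc92, 9 were higher in pituitary, as were 39 of the 50 and 71 of the 100 largest. Of the 10 with the largest gaps above wild type, led by Bglap, Mgl2 and Col9a3 at 2.71, 2.14 and 2.08 log2 units, 0 were higher in pituitary, as were 8 of 50 and 25 of 100. The sets were ranked on skin arrays that also enter the pituitary comparison, so these counts are a description. Among the genes that separate like Usp51, Marchf11 was read at 117 to 125 in wild-type skin, 8 to 17 in knockout skin and 149 to 250 in pituitary, and Gpr6 at 62 to 94, 9 to 13 and 177 to 993.

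A probe set with no gene symbol also met the limits that Usp51 and Carmil3 met. It was read at 158, 154 and 126 in wild-type skin, 12, 10 and 12 in lncKO and 10, 14 and 9 in miR-205 KO. Unlike Usp51 it was at 6 to 9 on all 9 pituitary arrays.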
